A study of Mus musculus with 7 samples.

Results

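The 34 genes described here are cell cycle and proliferation genes of the mouse forebrain at postnatal day 15, chosen by symbol and found in all 34 cases among the 47729 genes of the count table. They comprise 24 genes of mitosis (the proliferation marker *Mki67*, *Top2a*, cyclins A and B with *Cdk1*, mitotic kinases, the spindle checkpoint and the spindle), 8 genes of DNA replication (the *Mcm* helicase subunits, *Pcna* and *Rrm2*) and the transcription factors *Foxm1* and *E2f1*. RNA was sequenced from 4 pools of *Lhx6*+/- (control) and 3 pools of *Lhx6*-/- (mutant) forebrain, each pool holding 2 animals of the strain F1(C57BL/6 X 129Sv), with 36 bp single reads. All animals carried the null allele *Lhx6*tm2Vpa, on 1 chromosome in controls and on both in mutants, and the allele was present in every cell from conception, so that the control is itself heterozygous. *Lhx6* encodes a LIM homeodomain transcription factor of interneurons born in the medial ganglionic eminence. Libraries are named here by the number in their column (control libraries 2, 3, 10 and 11; mutant libraries 5, 12 and 13), because the labels do not tie a library to the sex or the RNA quality of its pool.

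Cells that divide switch on large sets of genes in turn. Before and during DNA synthesis, E2F factors drive genes of replication: the MCM complex, which unwinds DNA, PCNA, the clamp that holds the polymerase, and ribonucleotide reductase, which supplies deoxynucleotides. From the G2 phase on, the MuvB complex with B-Myb and FOXM1 drives genes of mitosis, through CHR motifs and neighbouring CCAAT boxes in their promoters. In the forebrain of this age most neurons have left the cell cycle, and the cells that still divide are mainly oligodendrocyte progenitors, glia and the precursors of the subventricular zone and the dentate gyrus. In RNA of whole tissue, fewer dividing cells and less RNA per dividing cell cannot be told apart.

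None of the 34 genes passed the test between the genotypes (0 called higher and 0 called lower by edgeR's quasi-likelihood test at an adjusted p of 0.05), against 4.85% of the 19684 genes tested. The count was also 0 at a p of 0.05 before adjustment, which 18.2% of all tested genes reached, and it was 0 at both thresholds in DESeq2 (8.80% of genes called, 18.5% before adjustment) and in limma-voom (4.89% and 18.5%). The median log2 fold change of the 34 genes was 0.12 (mutant minus control), against -0.01 over all tested genes, with 26 values above 0 and 8 below. The largest were *Ccnb1* (0.61) and *Ccnb2* (0.54), both mitotic cyclins, and the lowest was *Bub1* (-0.35), a kinase of the spindle checkpoint. In no member did the 3 mutant libraries all lie above or all below the 4 control libraries, a separation seen in 19.7% of tested genes. The mutant libraries differed among themselves: summed over the genes of mitosis, mutant libraries 5 (94.9 CPM, counts per 1000000 counts) and 13 (83.6 CPM) lay above every control and mutant library 12 (50.8 CPM) below every control, while the genes of replication summed to between 70.0 and 78.7 CPM in all 7 libraries.

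The libraries summed to between 32556304 and 38069151 expected counts, so that 3 counts, the limit that a count of 0 allows, came to between 2.84 and 3.29 normalized counts. A normalized count is the count a library would have given at the mean effective size of the 7 libraries. *Lhx6* itself read between 476 and 615 normalized counts in controls and between 70.1 and 76.6 in mutants, a log2 fold change of -2.88 (SE 0.135, edgeR adjusted p = 5.99e-05), in the direction that the labels give. *Gabra6*, a receptor subunit of cerebellar granule cells chosen from the marker lists after its values were seen, was at 0 in every library but control library 3, where it read 12.1. Libraries of one genotype differed by a chi-square of 9.36 to 65.9 per degree of freedom, the lowest values being those of control libraries 10 and 11 (9.94) and mutant libraries 12 and 13 (9.36), which also stand next to each other in number. Libraries 2, 3 and 5, and libraries 10 to 13, were therefore also fitted separately.

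Promoters of the members were searched for the motifs of the factors that drive these genes. RefSeq (GRCm38.p6) gave a window from 250 bases before to 50 bases after the start for 28 of the 34 genes, and each window was searched on both strands for CCAAT, for the CHR motif (TTTGAA or TTCGAA) and for E2F motifs (TTCCCGC or TTGGCGC). CHR letters stood in 15 of 20 mitosis windows (75%) and 2 of 7 replication windows (28.6%), and in 19.2% of all 32851 RefSeq windows. CCAAT stood in 17 of 20 mitosis windows (85%) and 7 of 7 replication windows, and in 37.4% of all windows. For E2F letters the larger share was that of the replication windows, with 4 of 20 mitosis windows (20%), 4 of 7 replication windows (57.1%) and 6.81% of all windows. In the 150 bases before the start alone, CHR letters were left in 30% of mitosis windows against 9.7% of all windows, and in several genes they lay just after the start. E2F letters were left there in 2 of 7 replication windows (28.6%), 10% of mitosis windows and 3.87% of all windows. A match of letters is a description of the sequence and not a bound site, and the RefSeq start lay 539 bases from the gene's 5′ end in the deposited annotation for *Mcm7* and 466 bases for *E2f1*.

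The 170 bases before the start are printed for 5 mitosis genes whose CHR letters lie before the start, and for 2 replication genes with E2F letters, to show the 2 arrangements. They are *Mki67* (chr7:135716380-135716549, minus strand), *Top2a* (chr11:99024190-99024359, minus strand), *Cdk1* (chr10:69352913-69353082, minus strand), *Cdc20* (chr4:118437344-118437513, minus strand), *Kif11* (chr19:37376212-37376381, plus strand), *Mcm5* (chr8:75109339-75109508, plus strand) and *Mcm6* (chr1:128359706-128359875, minus strand), read 5′ to 3′ on the strand of the gene. Capitals mark CCAAT (or ATTGG on the other strand), CHR letters (or TTCAAA on the other strand) and E2F letters (or GCGCCAA on the other strand).
Mki67: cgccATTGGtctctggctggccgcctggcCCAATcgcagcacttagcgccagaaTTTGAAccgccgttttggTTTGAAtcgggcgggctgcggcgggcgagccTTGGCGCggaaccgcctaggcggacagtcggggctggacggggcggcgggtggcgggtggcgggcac
Top2a: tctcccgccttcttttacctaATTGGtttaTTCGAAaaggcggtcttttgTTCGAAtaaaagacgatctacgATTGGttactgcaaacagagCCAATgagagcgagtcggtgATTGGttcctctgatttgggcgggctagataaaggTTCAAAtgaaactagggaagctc
Cdk1: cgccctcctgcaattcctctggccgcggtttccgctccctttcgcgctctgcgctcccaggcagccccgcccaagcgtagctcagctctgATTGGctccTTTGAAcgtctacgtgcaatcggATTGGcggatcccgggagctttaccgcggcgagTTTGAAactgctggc
Cdc20: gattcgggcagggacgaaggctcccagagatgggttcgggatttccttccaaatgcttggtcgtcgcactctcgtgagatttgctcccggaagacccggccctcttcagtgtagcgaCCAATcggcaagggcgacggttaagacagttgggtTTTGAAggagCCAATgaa
Kif11: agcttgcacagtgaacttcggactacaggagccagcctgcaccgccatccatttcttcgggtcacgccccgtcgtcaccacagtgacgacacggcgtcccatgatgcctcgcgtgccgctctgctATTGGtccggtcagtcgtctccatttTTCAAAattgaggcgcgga
Mcm5: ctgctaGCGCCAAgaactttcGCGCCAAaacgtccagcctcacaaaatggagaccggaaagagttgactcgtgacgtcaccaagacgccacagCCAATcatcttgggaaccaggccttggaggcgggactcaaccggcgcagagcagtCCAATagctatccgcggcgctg
Mcm6: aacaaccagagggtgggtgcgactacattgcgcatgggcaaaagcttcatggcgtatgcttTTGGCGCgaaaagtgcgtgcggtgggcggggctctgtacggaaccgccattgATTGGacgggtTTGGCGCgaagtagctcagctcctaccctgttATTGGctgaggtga
In *Mki67* the CHR letters began 116 and 98 bases before the start, with an E2F motif at 67. *Cdk1* held CHR letters at 71 and at 15, and *Cdc20* at 18 and *Kif11* at 19, each with a CCAAT box in the stretch. The window of *Cdk1* also held an E2F motif at 178, outside the stretch. *Top2a* held 3 matches within the stretch, at 140, 120 and 23. *Mcm5* and *Mcm6* held no CHR letters in their windows and 2 E2F matches each, at 164 and 149 in *Mcm5* and at 109 and 46 in *Mcm6*. Other replication windows differed: *Mcm2* held CHR letters and no E2F letters, *Mcm7* held both, and *Pcna* and *Rrm2* held neither.

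**Figure D1:**
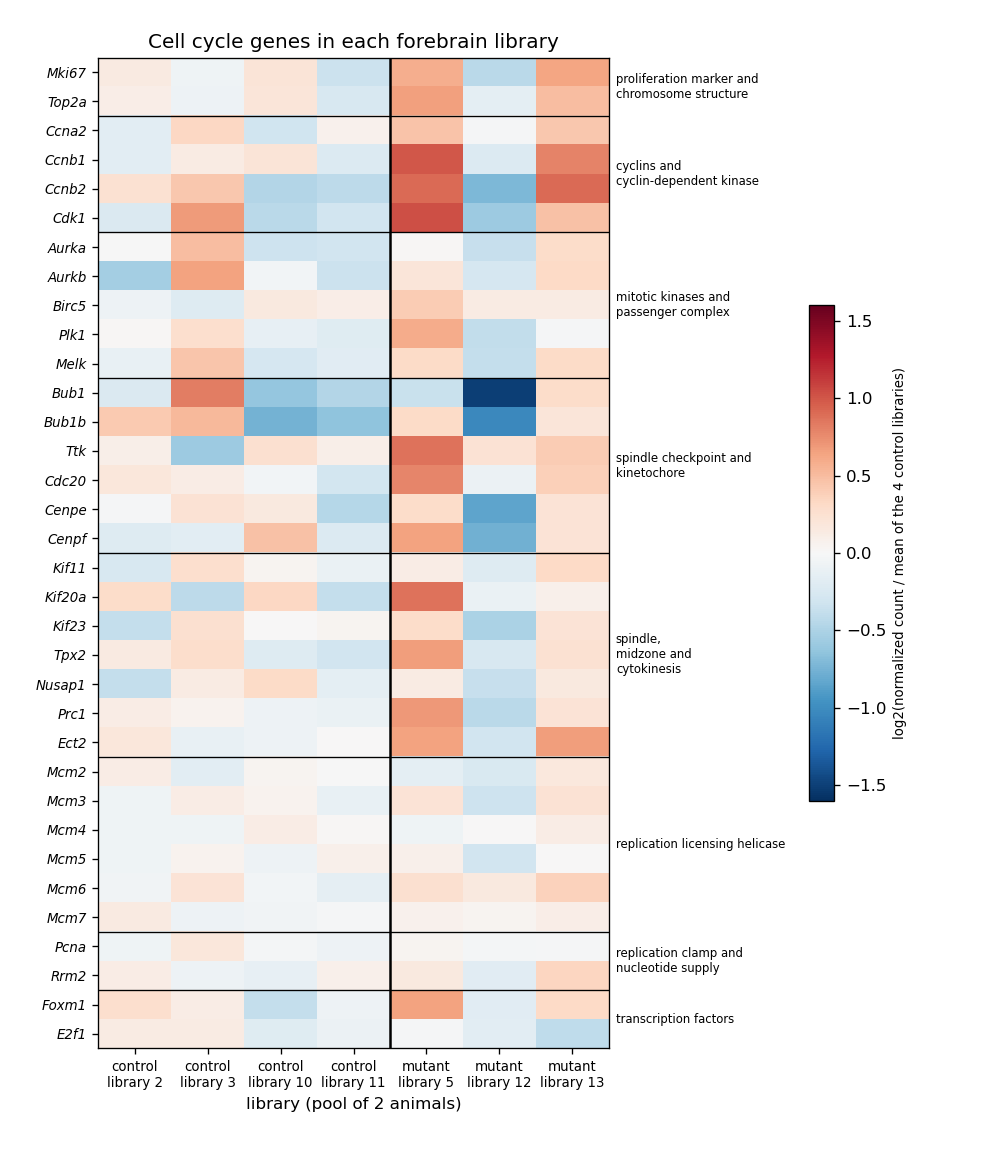
Each row is a gene, each column a library (a pool of 2 animals), and the colour gives the log2 ratio of its normalized count to the mean of the 4 control libraries, with role groups set apart by lines. Mutant library 12 is below libraries 5 and 13 in 32 of 34 genes, and the *Mcm* genes and *Pcna* are paler than most genes of mitosis.

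The highest levels per length belonged to replication genes and *E2f1*. Per kilobase of exon, the control mean was highest for *Pcna* (10.9 CPM per kb), followed by *E2f1* (5.71), *Mcm7* (2.64), *Mcm4* (2.45) and *Mcm5* (2.06). Among mitosis genes the highest level per kb was that of *Plk1* (1.18), followed by *Cdc20* (0.976), *Tpx2* (0.941) and *Ccna2* (0.931), which lie close together, and the lowest was that of *Ttk* (0.146). The lowest replication gene per kb, *Mcm2* (0.786), was level with *Mki67* (0.786) and *Top2a* (0.792). Several counts are less certain because RSEM shares reads among similar sequences: the share of 36-base words held in common with another gene was 26.3% for *Ccnb1*, 24.1% for *Mcm7*, 22.1% for *Pcna*, 19.8% for *Cdc20*, 12.2% for *Plk1* and 9.45% for *Rrm2*, mostly with pseudogenes. *Kif20a* shared 33.2% of its exon length with *Cdc23* on the other strand, *Ccna2* 12.5% with *Exosc9*, *Prc1* 11.1% with *Rccd1* and *Mcm7* 8.7% with *Cops6* and *Ap4m1*, and reads of overlapping genes may not have been told apart, since the use of strand in counting is not given in the sources used here.

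*Mki67*, which encodes the Ki-67 protein that coats mitotic chromosomes and marks cycling cells, read 313, 269, 325 and 222 normalized counts in control libraries 2, 3, 10 and 11. The mutant libraries 5, 12 and 13 read 424, 209 and 438. Libraries 5 and 13 thus lay above every control and library 12 below every control. The means were 282 ± 47.0 (SD, n = 4) and 357 ± 129 (SD, n = 3), with a log2 fold change of 0.34 (95% interval -0.24 to 0.92, edgeR adjusted p = 0.561). *Top2a*, the topoisomerase that untangles DNA before chromosomes part, read 273, 240, 291 and 213 in controls and 400, 228 and 359 in mutants. Here library 12 lay inside the control range and the other mutants above it. The log2 fold change was 0.37 (95% interval -0.08 to 0.83, adjusted p = 0.387).

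The cyclins and their kinase had the largest spread between mutant libraries of the 8 role groups, with a median SD of 44.5% of the mean. *Ccnb1*, the cyclin B1 that activates CDK1 at the entry into mitosis, read 54.8, 67.3, 71.0 and 52.9 in controls and 122, 52.8 and 107 in mutants. Libraries 5 and 13 were above all controls, whereas library 12 was level with the lowest control. Its log2 fold change of 0.61 (95% interval -0.04 to 1.26) had the smallest p of the 34 genes, 0.0617 before adjustment by edgeR and 0.304 after. *Ccnb2* read 48.3, 55.2, 29.7 and 30.5 in controls and 76.6, 24.8 and 76.7 in mutants. *Cdk1*, the kinase itself, read 39.5, 74.3, 34.5 and 37.6 in controls, library 3 standing apart, and 94.8, 31.1 and 64.4 in mutants. In both genes library 12 was the lowest of all 7. *Ccna2*, the cyclin of S phase and G2, read 121, 170, 109 and 142 in controls and 186, 134 and 183 in mutants, a smaller difference of 0.31 on the log2 scale (adjusted p = 0.484). Adjusted p was 0.567 for *Ccnb2* (log2 fold change 0.54) and 0.649 for *Cdk1* (0.45).

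**Figure D2:**
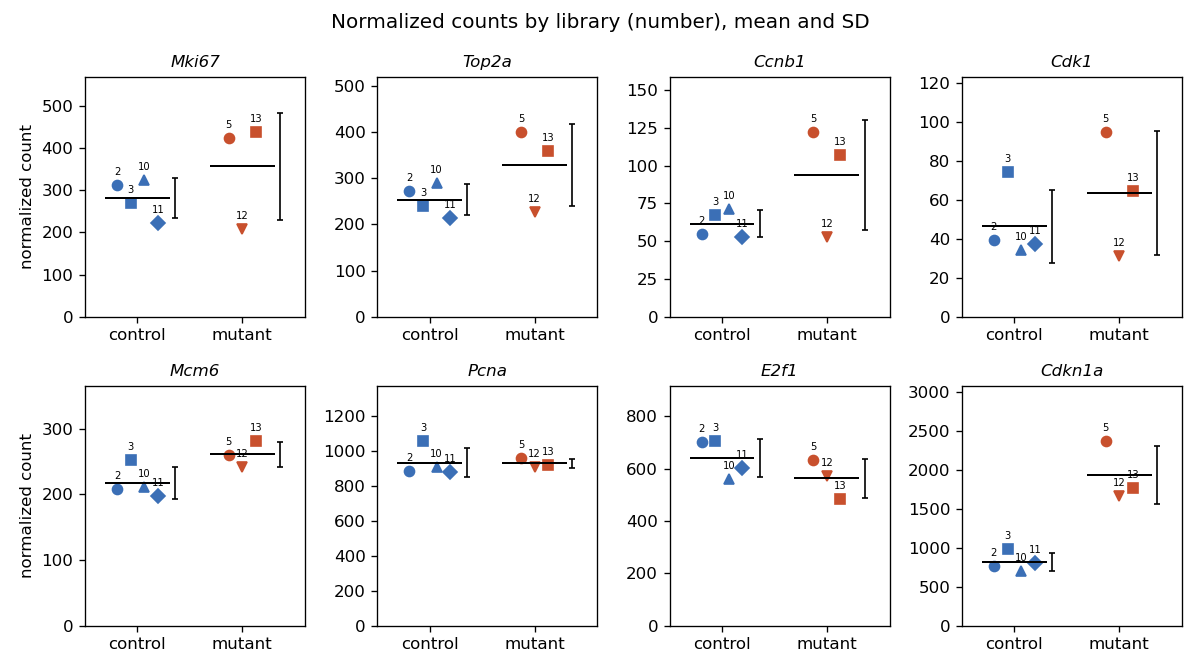
Points are normalized counts of single libraries, labelled with the library number, in controls (blue) and mutants (red), with the group mean (line) and SD (bar), for 7 of the 34 genes and the CDK inhibitor gene *Cdkn1a*. For *Mki67*, *Top2a* and *Ccnb1*, mutant libraries 5 and 13 lie above every control and library 12 does not; *Pcna* spans 878 to 1054, and *Cdkn1a* is the gene whose genotypes separate.

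The mitotic kinases and the passenger complex had log2 fold changes between 0.01 (*Aurka*) and 0.23 (*Birc5*). *Plk1*, a kinase needed for spindle assembly, read 93.2, 111, 84.4 and 80.3 in controls and 139, 70.4 and 90.9 in mutants, so that only library 5 exceeded the controls. *Birc5*, which encodes survivin of the passenger complex, varied less, at 63.6, 58.2, 74.8 and 72.2 in controls and 89.1, 73.5 and 73.9 in mutants. Its libraries 12 and 13 were alike. The Aurora kinase genes *Aurka* and *Aurkb* and the kinase gene *Melk* ranged from 23.0 to 90.4 normalized counts over the 7 libraries, and in each of the 3 the highest value was that of control library 3. No gene of this group had both libraries 5 and 13 above all controls.

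The spindle checkpoint genes were among the most variable, with a median ratio of 2.71 between the highest and the lowest library. *Bub1*, whose kinase halts cells until chromosomes are attached, read 25.2, 52.2, 19.2 and 21.3 in controls and 23.0, 10.4 and 36 in mutants, a ratio of 5.05 between the highest and the lowest library. Its mean was 29.5 ± 15.4 (SD, n = 4) in controls and 23.1 ± 12.8 (SD, n = 3) in mutants. *Bub1b*, its partner in the checkpoint, split the controls by number, with 111 and 118 in libraries 2 and 3 and 48.9 and 52.9 in libraries 10 and 11. The mutants read 102, 40.4 and 94.7, so that library 13 was far from its neighbours in number and library 12 close to them. The log2 fold change of *Bub1b* was -0.07 with all libraries and 0.42 within libraries 10 to 13. *Ttk*, the checkpoint kinase MPS1, had the smallest p of this group (0.0992 before adjustment by edgeR, 0.389 after), with 27.4, 17.1, 30.7 and 27.4 in controls and 46.9, 30.0 and 34.1 in mutants. *Cdc20*, which activates the anaphase-promoting complex, read 73.5, 70.3, 63.3 and 52.9 in controls and 112, 61.1 and 84.3 in mutants. For *Cdc20*, libraries 5 and 13 were above all controls. The motor and kinetochore genes *Cenpe* and *Cenpf* had log2 fold changes of -0.02 and 0.14, and their lowest library was mutant library 12 (59.0 and 77.6).

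Among genes of the spindle, the midzone and cytokinesis, log2 fold changes ran from -0.01 (*Nusap1*) to 0.41 (*Ect2*). *Ect2*, the exchange factor that starts the cleavage furrow, was steady in controls at 50.4, 41.2, 42.2 and 44.7, and read 69.9, 36.2 and 71.0 in mutants. The spread between mutants, 33.5% of their mean (SD), was thus larger than that between controls, 9.29%. *Prc1*, which bundles the microtubules of the midzone, read 215, 207, 187 and 184 in controls, an SD of 7.61% of the mean, and 321, 147 and 230 in mutants, an SD of 37.4%. Counting error alone gives 14.0% for *Ect2* and 6.84% for *Prc1*. *Tpx2*, a spindle assembly factor, read 173, 191, 136 and 127 in controls and 250, 131 and 186 in mutants. The motor genes *Kif11*, *Kif20a* and *Kif23* had log2 fold changes of 0.10, 0.34 and 0.05, with adjusted p from 0.641 to 0.955. Of these motors, *Kif20a* is the gene that overlaps *Cdc23*.

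The replication genes were steadier, both within and between genotypes. *Pcna* read 886, 1054, 910 and 878 in controls and 957, 909 and 921 in mutants, a log2 fold change of -0.01 (95% interval -0.21 to 0.20, edgeR adjusted p = 0.986). The genotypes overlapped throughout. *Mcm7* read 460, 394, 402 and 410 in controls and 436, 431 and 450 in mutants, a difference of 0.08 (95% interval -0.15 to 0.31). *Mcm6* had the smallest p of the group, 0.0716 before adjustment by edgeR and 0.332 after, with 209, 253, 212 and 197 in controls and 261, 242 and 281 in mutants. In *Mcm6*, library 12 lay above 3 of the 4 controls. *Mcm2*, *Mcm3*, *Mcm4* and *Mcm5* had log2 fold changes between -0.07 and 0.07. *Rrm2*, the regulated subunit of ribonucleotide reductase, read 143, 124, 120 and 139 in controls and 147, 116 and 167 in mutants, a difference of 0.12 (adjusted p = 0.771).

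Of the transcription factors, *Foxm1*, which drives genes of mitosis, had mutant library 12 below the other mutants, with 159, 143, 101 and 125 in controls and 206, 116 and 165 in mutants. *E2f1*, which drives genes of replication, had another order, with 701, 704, 559 and 602 in controls and 633, 572 and 483 in mutants. Its lowest library was mutant library 13. The log2 fold change was 0.30 for *Foxm1* (adjusted p = 0.567) and -0.19 for *E2f1* (adjusted p = 0.532).

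**Figure D3:**
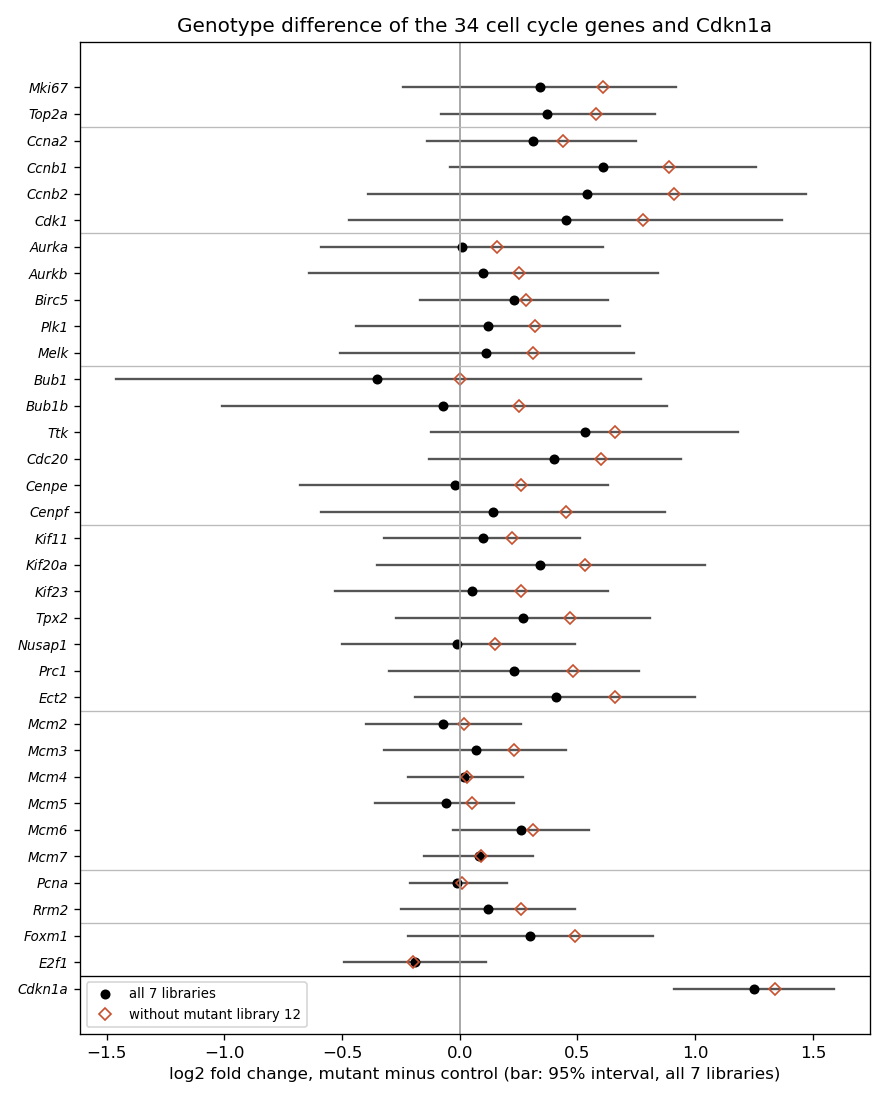
Filled points are log2 fold changes (mutant minus control) from all 7 libraries with 95% intervals, and open diamonds the same without mutant library 12. The intervals of all 34 genes include 0; that of *Cdkn1a*, at the bottom, runs from 0.91 to 1.59.

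The size of difference that the data could show depended on the gene group. All 34 intervals at 95% included 0. For replication genes the median half-width was 0.29 on the log2 scale, and 8 of 8 intervals lay within 1 of 0 and 7 of 8 within 0.5. For mitosis genes the median half-width was 0.60, 16 of 24 intervals lay within 1, and none (0) within 0.5. The widest belonged to *Bub1*, whose interval ran from -1.46 to 0.77. The smallest half-width among mitosis genes was 0.40.

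The spread of the mitosis genes lay in the libraries, and mostly among mutants. The ratio of the highest to the lowest library had a median of 2.11 in the 24 mitosis genes, 1.33 in the 8 replication genes and 1.57 in all tested genes. The SD between mutant libraries had a median of 32.4% of the mean in mitosis genes and 10.7% in replication genes, and that between controls 19.6% and 7.93%. Counting error alone gives medians of 11.5% and 6.43%, and of 4.89% in all tested genes. The ratios above therefore compare genes of unequal counting error. Mutant library 12 was below mutant libraries 5 and 13 in 24 of 24 mitosis genes and 7 of 8 replication genes, against 32.2% of all tested genes, and in *Mcm4* and *E2f1* alone of the 34 it was not. Libraries 5 and 13 both exceeded every control in 9 of 24 mitosis genes and 3 of 8 replication genes (13.7% of all tested genes). This order of libraries was noticed after the values were seen and carries no test, and genes that are expressed in the same dividing cells are not independent of each other.

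**Figure D4:**
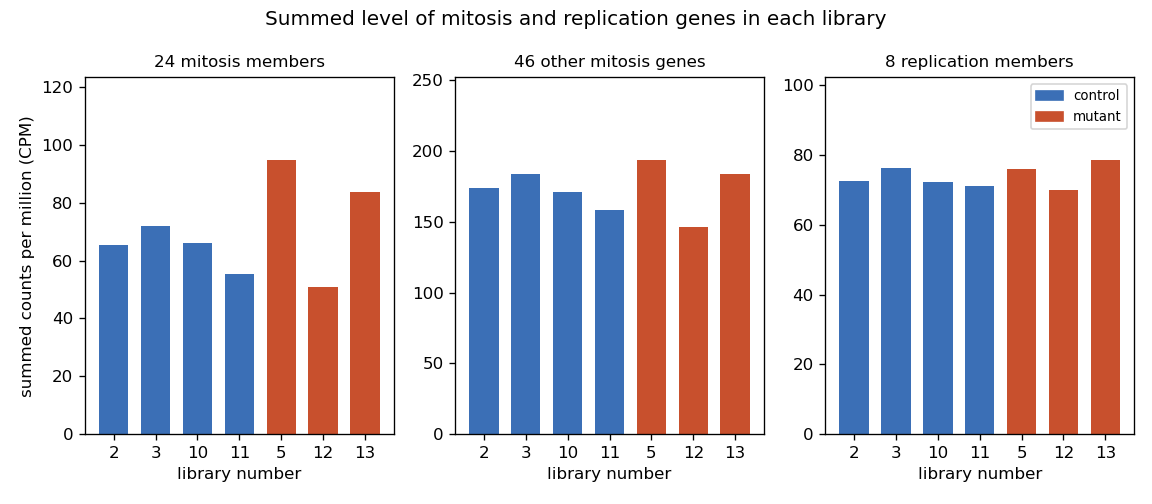
Bars give the summed CPM of each gene group in each library (axis from 0), with controls in blue and mutants in red. Mitosis members run from 50.8 CPM in mutant library 12 to 94.9 in mutant library 5, and replication members from 70.0 to 78.7 CPM.

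Summed over the 24 mitosis genes, controls held 65.4, 71.8, 66.2 and 55.5 CPM in libraries 2, 3, 10 and 11, and mutants 94.9, 50.8 and 83.6 CPM in libraries 5, 12 and 13. The mutants thus lay on both sides of the control range. The 8 replication genes summed to 72.6, 76.3, 72.2 and 71.2 CPM in controls and to 76.1, 70.0 and 78.7 CPM in mutants, where library 12 was again the lowest. The 46 other mitosis genes, a list that shares no gene with the 24, ran from 158 to 184 CPM in controls and read 194, 146 and 184 CPM in mutants. Library 12 was below libraries 5 and 13 in 40 of these 46 genes.

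The size of the genotype difference depended on single libraries, most of all on mutant library 12. Without it, 33 of 34 log2 fold changes were above 0, the median was 0.29, and 7 genes had an edgeR p of 0.05 or less before adjustment (13.9% of tested genes in that fit), although none (0) passed after it (1.99% of tested genes did). These were *Mki67* (0.61), *Top2a* (0.58), *Ccnb1* (0.89), *Ccnb2* (0.91), *Cdc20* (0.60), *Prc1* (0.48) and *Ect2* (0.66), and the smallest adjusted p was 0.085, for *Ccnb1*. Without mutant library 5 the median was 0.04 and without mutant library 13 it was 0.08, with 21 of 34 values above 0 in each case. Without control library 3 it was 0.22, with 31 of 34 values above 0, and *Ccna2* (0.43) and *Mcm6* (0.34) had a p of 0.05 or less before adjustment (19.7% of tested genes). Without control library 11 the median was 0.07. Within libraries 2, 3 and 5, with 1 mutant, the median was 0.28 and *Top2a*, *Ccnb1* and *Cenpf* reached a p of 0.05 before adjustment (8.78% of tested genes), and within libraries 10 to 13 the median was 0.14 and *Mcm6* alone did (24.7%). These fits differed most for *Cenpf* (0.83 within libraries 2, 3 and 5 and -0.35 within libraries 10 to 13), *Bub1* (-0.75 and 0.22), *Ttk* (1.08 and 0.15) and *Kif20a* (0.89 and -0.03), and these differences were not tested. With the 2 blocks of library numbers (2 to 5 and 10 to 13) as a covariate, *Ccnb1*, *Cdc20*, *Tpx2*, *Mcm6* and *Foxm1* did (25.6% of tested genes). None (0) of the 34 passed after adjustment in these 3 fits, where 1.56%, 9.44% and 11.2% of tested genes did.

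Markers of other cells varied between the libraries too, and their part in these values was not tested. No gene (0) of the marker lists used here was at 0 in every library. The 12 genes listed for oligodendrocyte progenitors summed to 741 to 931 CPM in controls. In mutant libraries 5, 12 and 13 they summed to 838, 863 and 870 CPM, an order other than that of the mitosis genes. Of these 12, 2 had mutant library 12 below libraries 5 and 13, among them the receptor gene *Pdgfra* (chosen after its values were seen), with 4426, 3535, 3980 and 3670 normalized counts in controls and 5068, 3328 and 4298 in mutants. The 14 genes of neural progenitors and neuroblasts summed to 344 to 385 CPM in controls and 335 to 359 CPM in mutants, and 5 of 14 had library 12 lowest among mutants. Endothelial genes (8) summed to 236 to 282 CPM in controls and to 334, 301 and 321 CPM in mutant libraries 5, 12 and 13, the same order as the mitosis genes. Choroid plexus genes (6) summed to 63.1, 212 and 149 CPM and red blood cell genes (5) to 178, 530 and 456 CPM in those mutants, the opposite order, and to 128 to 275 and 329 to 901 CPM in controls.

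The rest of the cell cycle machinery was read from 5 lists of other genes, with 36, 46, 9, 9 and 12 tested genes. In these lists 1 gene passed the test, where 4.85% of all tested genes did. *Cdkn1a*, which encodes p21, the inhibitor of cyclin-dependent kinases that p53 induces, read 767, 981, 703 and 806 normalized counts in controls and 2361, 1667 and 1764 in mutants. Every mutant library lay above every control, and library 5, which had the highest sum of mitosis genes, was also the highest for *Cdkn1a*. The means were 814 ± 119 (SD, n = 4) and 1931 ± 376 (SD, n = 3), a fold of 2.37 and a log2 fold change of 1.25 (SE 0.150, edgeR adjusted p = 0.00314). The gene passed in every alternative run, with log2 fold changes of 1.08 to 1.43 and adjusted p from 7.5e-12 to 0.0142. The other 8 CDK inhibitors and pocket proteins that were tested lay between -0.24 and 0.53 on the log2 scale. *Cdkn2c* (p18), named because it was the highest of these 8, was at 0.53 with an adjusted p of 0.292. *Cdkn2a* was not tested because its normalized counts, 0.958 to 5.68, were near the limit that a count of 0 allows.

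The other 4 lists were 36 other replication genes, 46 other mitosis genes, 9 G1 cyclins and kinases and 12 other E2F and MuvB factors. In these 4 lists no gene (0) was called in either direction by edgeR without a covariate, against 4.85% of all tested genes. Median log2 fold changes were -0.01, 0.12, 0.04 and -0.00, and that of the CDK inhibitors and pocket proteins was -0.01. At a p of 0.05 before adjustment, 4 replication genes and 1 E2F factor were reached, where 18.2% of all tested genes were, and they are named here after their values were seen. The licensing factor gene *Cdt1* was at 0.44, its partner *Cdc6* at -0.69, the helicase subunit gene *Gins4* at -0.30 and the polymerase epsilon subunit gene *Pole2* at -1.04. *Pole2*, with 15.4 to 28.1 normalized counts in controls and 8.62 to 12.3 in mutants, and *Cdt1*, with 50.2 to 79.3 and 84.9 to 95.6, did not overlap between genotypes, as in 19.7% of all tested genes, and their adjusted p was 0.133 and 0.27. The repressor gene *E2f6* was at -0.30, with 585 to 664 in controls and 452 to 561 in mutants (adjusted p = 0.177), and with the block of library numbers as a covariate it was called lower by edgeR, at -0.34 (adjusted p = 0.0296).

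Among the 10 lists of cell type markers reported here, 4 genes were called by edgeR, at most 1 in any list, where 4.85% of all tested genes were. The 4 came from lists of 10 (astrocytes), 10 (microglia), 12 (oligodendrocyte progenitors) and 2 (olfactory bulb) tested genes. *Gfap*, the filament protein of reactive astrocytes, had a log2 fold change of 1.95 (adjusted p = 7.41e-05), with 6208 to 7255 normalized counts in controls and 22333 to 27248 in mutants. *Cd68*, a lysosomal protein of microglia, was at 0.97 (adjusted p = 0.0152), and *Pcdh15*, a protocadherin listed for oligodendrocyte progenitors, at 0.95 (adjusted p = 0.0122). *Cdhr1*, of olfactory bulb mitral and tufted cells, was at -0.79 (adjusted p = 0.0441). The summed astrocyte markers ran from 6133 to 8823 CPM in controls and from 9626 to 11219 CPM in mutants, and those of microglia from 411 to 417 and from 353 to 410 CPM. In the meningeal, cerebellum, choroid plexus, endothelial, red blood cell and neural progenitor lists, no gene (0) was called by edgeR, against 4.85% of all tested genes. At a p of 0.05 before adjustment, which 18.2% of all tested genes reached, these lists held 2 of 6, 0 of 3, 1 of 6, 5 of 8, 0 of 5 and 3 of 14 tested genes.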

How the data were processed

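Reads of 36 bp were trimmed by the authors with CutAdapt 1.9.1, aligned with Bowtie2 2.2.9 to the GRCm38 transcriptome and summed per gene with RSEM 1.2.31, and the authors deposited expected counts, estimates that are not normalized and need not be whole. Their deposited comparison of the genotypes with DESeq2 (fold changes, p-values) was not used, except for its gene symbols. Gene positions came from the deposited exon annotation.

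The members, role groups, lists of other genes and tests were chosen with earlier results of these data known. Expected counts were rounded. Genes that reached 10 counts in 3 or more libraries were scaled by TMM and tested with edgeR 4.0.16 (R 4.3.3; quasi-likelihood F test, no covariate, 2-sided), with Benjamini-Hochberg adjustment over 19684 genes at 0.05. Intervals are at 95%, from the standard error of the fold change. p-values measure the spread between pools of 2 animals. Replicates were compared by chi-square per degree of freedom before they were averaged, and no 2 libraries agreed within sampling noise. The smallest library, at 32556304 counts, gives 0.0921 CPM for a floor of 3 counts; floors cover counting error only. The number of per-sample columns left out was 0. No test was made over the list. The test was also run on simulated counts, and the outcome of that run is not given here.

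All members could be named, in each role group at least the one highest per length and the one with the smallest p. From the other lists reported here, every called gene was named where at most 8 were called. Names outside this rule are marked in the text, apart from *Cdkn2a*, which was not tested. The lists were 5 of cell cycle genes and 11 of cell type markers, of which 1 is not reported here; for *Itgam*, a marker with more than 1 identifier, the first was used. Alternatives were DESeq2 1.42.0, limma-voom (limma 3.58.1), RLE and upper quartile scaling, other filters, unrounded counts, the block of library numbers as a covariate or as a subset, and each library left out.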

Additional observations from a re-analysis of the deposited data

Results flagged for a closer look

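Among the 34 genes and *Cdkn1a*, each tested for a control library that stands apart from the other 3 (a gap of more than 0.829 of the group's range), 2 were marked, and chance alone marks about 1 in 20 such groups. *Cdk1* read 74.3 normalized counts in control library 3, a gap of 0.876 of the range, where the other controls read 34.5 to 39.5. *Cenpf* read 184 normalized counts in control library 10, a gap of 0.934 of the range, where the others read 114 to 118. Groups of 3, as the mutants are, were not examined in this way.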

How the results depend on the processing

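No member was called in either direction under any alternative run. *Cdkn1a* kept its call in all of them, and the median log2 fold change of the 34 genes stayed between 0.04 and 0.29. The number of all genes called moved from 954 to 1731 with DESeq2, 2205 with the block covariate, 308 within libraries 2, 3 and 5 and 1858 within libraries 10 to 13, and to between 302 and 971 when a library was left out. With the block covariate, 1 other cell cycle gene was called lower, *E2f6* (adjusted p = 0.0296 by edgeR), and without the covariate none was. Fits within libraries 2, 3 and 5 have 1 mutant library, which is assumed to vary like the controls. Log2 fold changes changed sign in several genes, *Bub1* (-0.35 with all libraries), *Kif20a* (0.34) and *Prc1* (0.23) among them. With upper quartile scaling, *Cenpe* was at 0.01, *Nusap1* at 0.02 and *Pcna* at 0.02 on the log2 scale. With the block covariate, *Bub1b* was at 0.16, *Cenpe* at 0.02 and *Pcna* at 0.01. Within libraries 2, 3 and 5, *Aurka* was at -0.24, *Cenpe* at 0.19, *Nusap1* at 0.23 and *Mcm5* at 0.09. Within libraries 10 to 13, *Plk1* was at -0.02, *Bub1* at 0.22, *Bub1b* at 0.42, *Cenpf* at -0.35, *Kif20a* at -0.03, *Kif23* at -0.11 and *Pcna* at 0.04. With single libraries left out, values ran from -0.16 to 0.22 for *Aurka*, -0.04 to 0.39 for *Aurkb*, -0.81 to 0.09 for *Bub1*, -0.28 to 0.25 for *Bub1b*, -0.03 to 0.22 for *Kif11*, -0.09 to 0.26 for *Kif23*, -0.20 to 0.02 for *Mcm2*, -0.03 to 0.23 for *Mcm3*, -0.03 to 0.08 for *Mcm4*, -0.13 to 0.05 for *Mcm5*, -0.20 to 0.26 for *Cenpe*, -0.18 to 0.45 for *Cenpf*, -0.12 to 0.15 for *Nusap1*, -0.03 to 0.06 for *Pcna*, -0.18 to 0.32 for *Plk1* and -0.06 to 0.48 for *Prc1*. The cause of these shifts was not tested. No paired analysis was possible because the columns carry library numbers and not the replicate numbers of the labels. The 7 pools limit what can be seen, since the intervals of mitosis genes had a median half-width of 0.60 on the log2 scale.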
